A study of Mus musculus with 7 samples.

Results

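Elastic fibres give tissues recoil and are built in layers. Fibrillins polymerise into microfibrils, fibulins help to place elastin on this scaffold, and lysyl oxidases then cross-link the elastin. In joints, fibrillin microfibrils surround chondrocytes and run through ligament, tendon, and synovium, and microfibrils also store latent TGF-β. The 10 genes described here encode fibulins (Fbln1, Fbln2, Fbln5, Fbln7, Efemp1, which is fibulin-3, and Efemp2, which is fibulin-4), fibrillins (Fbn1 and Fbn2), elastin (Eln), and the microfibril-associated glycoprotein MAGP-2 (Mfap5). They were taken by exact gene name from the 55401 genes of the count table, and all 10 passed the filter on low counts, which 16429 genes passed. They were chosen by their expression in these same samples, with the difference between the genotypes known, so that difference is given as a description.

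The samples came from male C57BL/6J mice whose right knee underwent destabilization of the medial meniscus (DMM), the surgery that induces osteoarthritis, at 10 weeks of age and were killed 2 weeks later. Of the 7 samples, 4 were wild type (WT) and 3 were Trpc1-/-, lacking exon 8 of the calcium channel gene Trpc1, which leaves a premature stop, and each pooled cartilage from 2 to 3 mice. No sham or unoperated knee was among them, so DMM is common to both groups. The labels name knee articular cartilage but list the femoral head beside the tibial plateau as its source, whereas the study's methods add subchondral bone and give 3 WT and 4 Trpc1-/- samples. The labels were used for the groups.

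The total count per sample lay between 52142451, in WT sample 1, and 118254070. Trpc1 itself was at 4.83, 4.55, 4.77, and 4.33 CPM (counts scaled to library size) in WT samples 1 to 4 and at 3.35, 3.79, and 3.04 CPM in Trpc1-/- samples 1 to 3, so the deletion did not remove the transcript from the counts, which cover the whole gene. Chondrocyte markers were abundant, with a summed level of 10 genes between 3405 and 6459 CPM, but 9 erythroid genes summed to between 15078 and 45259 CPM, so RNA of the red cell lineage was present as well. Skeletal muscle markers ranged from 55.9 to 1138 CPM and were highest in WT sample 1, which also had the largest share of counts on the mitochondrial ribosomal RNA gene mt-Rnr2 (19.6%, against 12.3% to 15.4%). None of the listed markers was at 0 in any sample.

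The DNA upstream of 4 fibulin genes is shown first, since they include the fibulin with the widest separation of the genotypes, Fbln1, and one with none, Efemp1. Each sequence holds the 250 bases before the most upstream RefSeq start site in GRCm38.p6, on the strand of the gene. The Fbln7 window lies inside the annotated gene, which starts at 128862981. The windows chosen contained at most 1 annotated exon base, and the transcript that follows was found in the annotation used here. Windows were examined for 7 of the 10 genes, and not for Fbn2, Eln, and Mfap5. Capitals mark matches, on either strand, to the GC box GGGCGG, the TATA box TATAAA, the TEAD motif GGAATG, or the E-box CACGTG. They also mark TGANTCA, a loose form of the AP-1 motif in which N is any base.
Fbln1, chr15:85205699-85205948, plus strand: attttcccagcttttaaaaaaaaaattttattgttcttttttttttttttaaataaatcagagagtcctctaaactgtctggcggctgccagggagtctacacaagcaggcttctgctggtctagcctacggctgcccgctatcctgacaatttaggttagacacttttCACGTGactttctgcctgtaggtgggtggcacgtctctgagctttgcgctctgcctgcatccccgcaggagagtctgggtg
Efemp2, chr19:5473696-5473945, plus strand: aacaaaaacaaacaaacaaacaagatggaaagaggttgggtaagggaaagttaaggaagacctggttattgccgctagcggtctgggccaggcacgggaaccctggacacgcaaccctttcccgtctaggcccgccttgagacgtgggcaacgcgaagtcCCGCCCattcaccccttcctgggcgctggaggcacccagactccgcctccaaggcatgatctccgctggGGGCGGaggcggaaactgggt
Fbln7, chr2:128863682-128863931, plus strand: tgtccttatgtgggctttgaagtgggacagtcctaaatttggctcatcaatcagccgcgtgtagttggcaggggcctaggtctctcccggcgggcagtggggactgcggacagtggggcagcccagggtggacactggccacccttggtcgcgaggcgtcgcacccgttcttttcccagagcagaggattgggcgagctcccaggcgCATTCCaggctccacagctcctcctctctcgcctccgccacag
Efemp1, chr11:28852955-28853204, plus strand: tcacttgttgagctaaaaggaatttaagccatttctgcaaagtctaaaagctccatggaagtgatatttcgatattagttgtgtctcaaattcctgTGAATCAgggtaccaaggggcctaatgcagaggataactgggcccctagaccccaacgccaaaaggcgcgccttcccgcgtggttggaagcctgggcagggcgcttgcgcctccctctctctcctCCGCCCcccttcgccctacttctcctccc
Fbln1 held 1 E-box, 81 bases before the start site. Neither Fbln1 nor Fbln7 held a GC box, whereas 5 of the 7 genes examined did. Of those 5, the windows of Fbln2 and Fbn1 lie in annotated exons and that of Fbln5 was not matched to an annotated transcript. Across the 32851 windows of this length that were used, 32.7% held a GC box and 6.02% the E-box. Efemp2 carried GC boxes 90 and 21 bases before its start and Efemp1 one at 29 bases, beside a TGANTCA match at 154 bases. That match reads TGAATCA, so it is not the AP-1 site proper, which has C or G in the middle. Fbln7 had a TEAD match at 43 bases. None of the 7 windows held TATAAA, which 12.4% of all windows did. The GC content of the 4 windows was lowest in Fbln1 (46.4%) and highest in Fbln7 (63.2%), against a median of 52.4% over all windows. These matches describe the letters and are not evidence of binding.

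To see which of these genes the tissue used most, levels were divided by exon length (CPM per kilobase of merged exons), with normalization by edgeR's TMM method. Fbn1, the main fibrillin of adult microfibrils, and Fbln7, a fibulin known from tooth and cartilage, led the order. In WT samples 1 to 4, Fbn1 stood at 21.7, 17.0, 15.7, and 13.7 and Fbln7 at 18.9, 17.0, 17.0, and 12.03 CPM per kilobase. These ranges overlapped, so the first and second places cannot be separated, and both genes lay above 87% of the tested genes in their WT mean. Every other gene of the set lay below both in each WT sample.

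Fbln2, which binds basement membrane and microfibril proteins, followed at 7.14 ± 2.095 CPM per kilobase in WT (SD, n = 4), with Efemp2, a fibulin needed to bring lysyl oxidase to elastin, at 5.76 ± 0.476 (SD, n = 4). Efemp1 (4.38 ± 0.759, SD, n = 4), Fbln5 (4.11 ± 0.453, SD, n = 4), and Mfap5 (3.84 ± 0.987, SD, n = 4) were close to the median of all tested genes, 4.05 CPM per kilobase. Their ranges over the WT samples overlapped. Fbln1 came next at 2.36 ± 0.105 CPM per kilobase (SD, n = 4), and was below Mfap5 in each WT sample, although the ranges overlapped at their edges. The lowest levels were those of Fbn2, the fibrillin best known from development, at 1.54 ± 0.509 and of Eln, the elastic core itself, at 1.52 ± 0.380 CPM per kilobase (SD, n = 4), which also overlapped. Of the neighbours in this order, those whose WT ranges did not overlap were Fbln7 above Fbln2, Efemp2 above Efemp1, and, narrowly, Fbln1 above Fbn2. The merged exons of Eln span 8098 bases against 3853 bases for its longest transcript, so its place depends on the length used. With the longest transcript, Eln moved from place 10 to place 8 and Mfap5 from 7 to 5, whereas the first 4 places were the same.

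**Figure D1:**
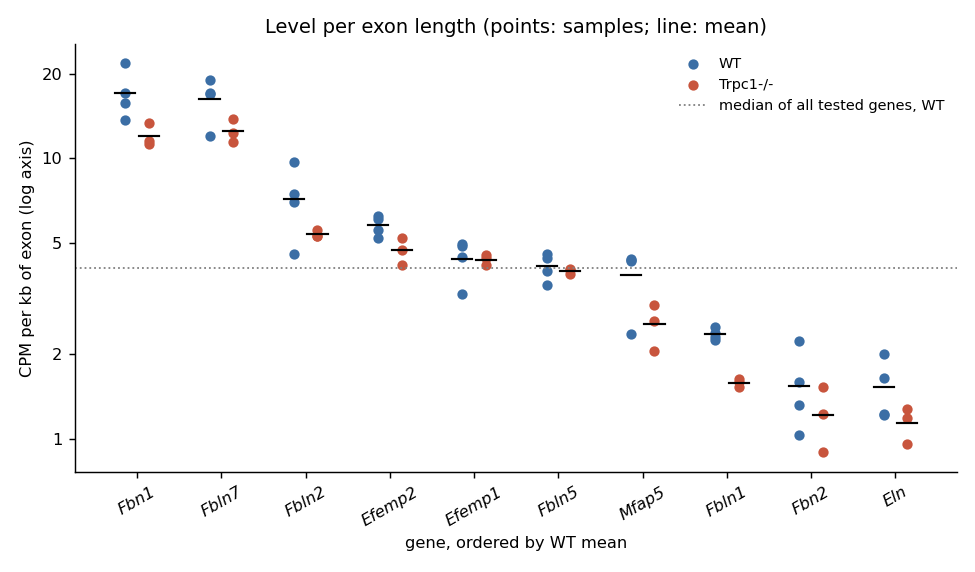
Level of each gene per kilobase of merged exon (y axis, CPM per kilobase, log axis), ordered by the WT mean on the x axis, with 1 point per sample, a black line at each group's mean, and a dotted line at the median of all tested genes (4.05). Fbn1 and Fbln7 lie above all other genes in WT, and Fbn2 and Eln are at the lower end.

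Within the fibulins the make-up of each sample was compared, a quantity that does not depend on how libraries are scaled. Fbln7 provided 43.6%, 40.6%, 40.7%, and 36.5% of the summed fibulin level per length in WT samples 1 to 4 and 41.0%, 37.8%, and 36.5% in Trpc1-/- samples 1 to 3. These shares overlapped between the genotypes. The share of Fbln1 was 5.74%, 5.68%, 5.39%, and 7.01% in WT and 4.56%, 5.01%, and 5.12% in Trpc1-/- samples, so the highest Trpc1-/- share lay below the lowest WT share. Efemp1 took between 7.58% and 13.5% in WT and between 12.7% and 14.5% in Trpc1-/- samples, with WT sample 1 alone below 10%. The fibrillins were mostly Fbn1 in every sample. Its level per length exceeded that of Fbn2 by 9.76-, 10.7-, 11.9-, and 13.2-fold in WT and by 10.9-, 7.55-, and 12.5-fold in Trpc1-/- samples, with overlapping groups.

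The genotype comparison sets Trpc1-/- against WT samples early after DMM. Without sham or unoperated knees, it cannot separate a difference in the response to DMM from one already present before surgery. All 10 genes averaged less in the Trpc1-/- group, as did 51.9% of all tested genes, and their median log2 fold change (logFC) was −0.40, against −0.01 over all tested genes. In bulk tissue, fewer cells of a type and less RNA per cell cannot be told apart. The plot of CPM by sample shows 3 kinds of pattern. Fbln1 was low in every Trpc1-/- sample with little spread, 7 genes were lower on average with groups that overlapped or came close to each other, and Fbln5 and Efemp1 had nearly the same mean in both genotypes.

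**Figure D2:**
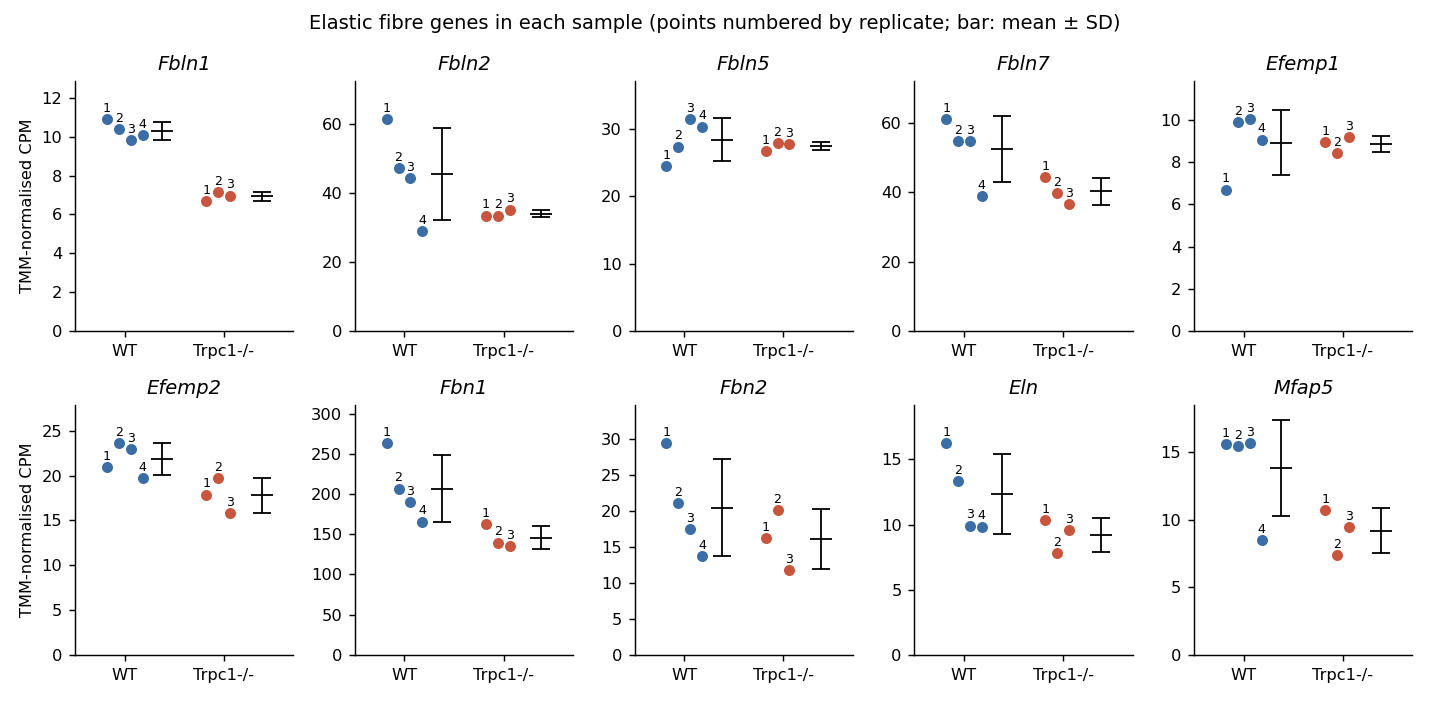
TMM-normalised CPM (y axis, from 0) of the 10 genes in WT (blue) and Trpc1-/- (red) samples, each point labelled with its replicate number and each bar giving the mean ± SD. The 4 WT values of Fbln1 lie between 9.83 and 10.9 CPM and the 3 Trpc1-/- values between 6.67 and 7.14 CPM, whereas Fbln5 and Efemp1 overlap.

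Fbln1, the secreted fibulin-1 that joins basement membranes, microfibrils, and versican-rich matrix, is on chromosome 15 (GRCm38, 85205949 to 85286535, plus strand). It was at 10.9, 10.4, 9.83, and 10.1 CPM in WT samples 1 to 4 and at 6.67, 7.14, and 6.97 CPM in Trpc1-/- samples 1 to 3. The groups did not overlap, and the gap between them was wider than the range within either. The means were 10.3 ± 0.459 CPM (SD, n = 4) and 6.93 ± 0.239 CPM (SD, n = 3), which is 32.7% lower, with a logFC of −0.57 (SE 0.08). Leaving out each sample in turn kept the logFC between −0.60 and −0.54.

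The other 5 fibulins split into genes that were lower on average and genes that were not. Fbln2 was at 61.5, 47.3, 44.3, and 28.9 CPM in WT and at 33.5, 33.5, and 35.3 CPM in Trpc1-/- samples (logFC −0.41, SE 0.22, chromosome 6, 91212455 to 91272540). The first 3 WT samples were above all Trpc1-/- samples and WT sample 4 was below them. Without WT sample 1 the logFC of Fbln2 was −0.24. Fbln7 showed a similar order, with 61.1, 54.8, 54.9, and 38.8 CPM in WT and 44.3, 39.8, and 36.7 CPM in Trpc1-/- samples (logFC −0.38, SE 0.15). Here WT sample 4 fell within the Trpc1-/- range. Efemp2 was at 20.95, 23.6, 23.0, and 19.73 CPM in WT and at 17.9, 19.71, and 15.8 CPM in Trpc1-/- samples (logFC −0.29, SE 0.10). Its groups touched without overlapping, at WT sample 4 and Trpc1-/- sample 2.

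Fbln5, which links elastin to cells through integrins, was at 24.5, 27.4, 31.5, and 30.4 CPM in WT and at 26.7, 27.9, and 27.7 CPM in Trpc1-/- samples (logFC −0.05, SE 0.09). Efemp1 was at 6.70, 9.91, 10.04, and 9.07 CPM in WT and at 8.95, 8.45, and 9.19 CPM in Trpc1-/- samples (logFC −0.01, SE 0.15). In both genes all Trpc1-/- samples lay inside the WT range and WT sample 1 was the lowest of all. The sign of both changed with the sample left out, so neither was given a direction.

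Of the fibrillins, Fbn1 (chromosome 2, 125300594 to 125507993, minus strand) was at 264, 207, 190.4, and 166 CPM in WT and at 162, 139.6, and 136 CPM in Trpc1-/- samples. Every Trpc1-/- sample was below every WT sample, though Trpc1-/- sample 1 and WT sample 4 were near each other, and the means differed by 29.4% (logFC −0.50, SE 0.16). Without WT sample 1, its logFC was −0.36. Fbn2 (chromosome 18) was at 29.4, 21.05, 17.5, and 13.7 CPM in WT and at 16.3, 20.1, and 11.8 CPM in Trpc1-/- samples (logFC −0.34, SE 0.28). Its groups overlapped widely, WT sample 1 was the highest, and without that sample the logFC was −0.12, while without Trpc1-/- samples 2 and 3 in turn it was −0.54 and −0.16.

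Eln (chromosome 5, 134702593 to 134747323, minus strand) was at 16.3, 13.3, 9.93, and 9.85 CPM in WT and at 10.3, 7.79, and 9.59 CPM in Trpc1-/- samples (logFC −0.42, SE 0.20). WT samples 1 and 2 were the high ones, and WT samples 3 and 4 lay within the Trpc1-/- range. Without WT sample 1 the logFC was −0.26. Mfap5 (chromosome 6, 122505845 to 122529290, plus strand), whose product decorates fibrillin microfibrils, had the lowest logFC of the 10 genes, −0.58 (SE 0.24). It was at 15.6, 15.4, 15.7, and 8.47 CPM in WT and at 10.7, 7.39, and 9.44 CPM in Trpc1-/- samples, so 3 WT samples were nearly equal and WT sample 4 lay among the Trpc1-/- samples.

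With the quasi-likelihood test of edgeR and Benjamini-Hochberg adjustment over 16429 genes, 0 of the 10 genes had an adjusted P under 0.05, as had 0% of all genes, and their adjusted P values lay between 0.305 (Fbln1) and 0.977 (Efemp1). At an unadjusted P under 0.05 there were 5 lower (Fbln1, Fbln7, Efemp2, Fbn1, and Mfap5) and 0 higher, against 5.49% of all tested genes lower and 4.51% higher. DESeq2, the method of the study, called Fbln1 alone (adjusted P = 3.46e-07), where 0.828% of all genes were called lower and 0.962% higher. The groups did not overlap for Fbln1, Efemp2, and Fbn1, all lower, where 6.42% of all tested genes were lower and 7.15% higher without overlap. Since these genes were proposed with this contrast known, the counts are given for orientation only. WT sample 1 had the lowest depth, the highest skeletal muscle markers, and the largest mt-Rnr2 share. Without it the edgeR adjusted P of Fbln1 was 0.0393, one of 52 calls over all genes, at a logFC of −0.54. Why the call changed was not tested. Over all 24 alternatives the adjusted P of Fbln1 ranged from 3.46e-07 to 0.932, and DESeq2 called it with each of the 7 samples left out in turn.

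The library names carry numbers in the 1300s (WT samples 1 and 2 and all Trpc1-/- samples) or in the 1700s (WT samples 3 and 4). Within the 1300s the median logFC of the 10 genes was −0.63 and that of Fbln1 was −0.62, and Fbn1 (−0.69), Eln (−0.68), and Fbln2 (−0.67) were further from 0 than over all samples. Fbln5 and Efemp1 were at 0.08 and 0.09. The 1700s hold WT samples only and give no value.

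**Figure D3:**
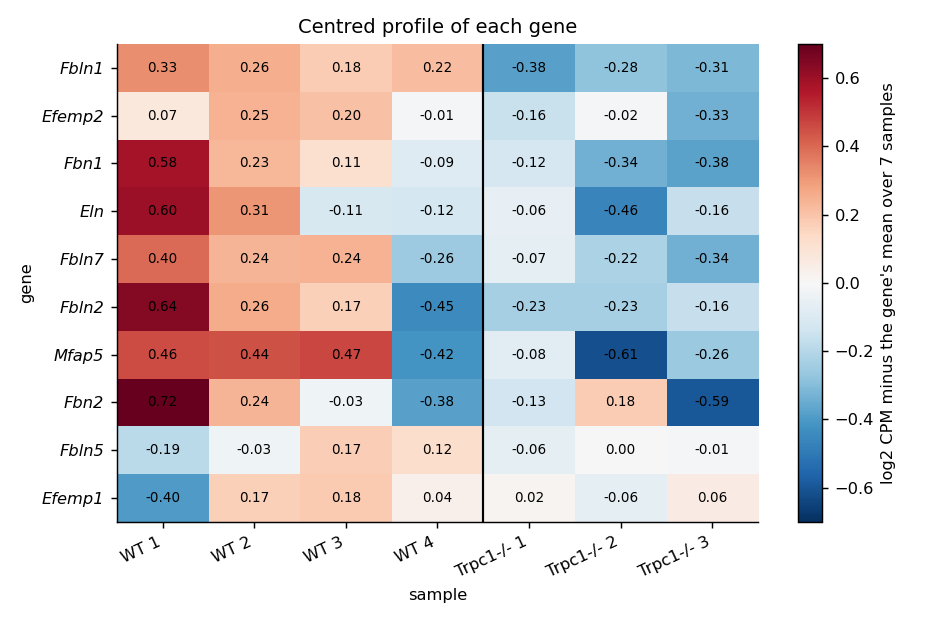
Log2 CPM of each gene minus its own mean over the 7 samples (colour and printed values), with genes as rows, samples as columns, and a line between the genotypes. WT sample 1 holds the highest value of 6 genes, the Trpc1-/- columns are mostly below 0, and Fbln5 and Efemp1 are lowest in WT sample 1.

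The centred profiles show where the genes moved together. WT sample 1 had the highest value of the 7 samples for 6 genes and the lowest for Fbln5 and Efemp1, while Trpc1-/- sample 3 had the lowest value for 4 genes. In WT sample 4, 7 of the genes were below their own mean. The likeness of 2 profiles was measured as the root-mean-square difference of centred log2 CPM over the 7 samples, where a small value means a similar profile. Among the 10 genes, Fbln7 and Fbn1 were closest (0.117), followed by Efemp1 and Fbln5 (0.121) and by Eln and Fbn1 (0.133), and the farthest apart were Efemp1 and Fbn2 (0.531).

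Tested genes outside the set with the nearest profiles were also found, up to 3 of which are given for each gene. Efemp2 was nearest to Emilin1, a glycoprotein of elastic fibres, at 0.031, where the median over all tested genes was 0.266, with Lhfp (0.038) and Twsg1 (0.039) after it. Fbln2 was nearest to Cd248 (0.058), a surface protein of stromal cells and pericytes, and then to Clip4 (0.063) and Ankrd29 (0.065). Fbln7 was nearest to the basement membrane collagen Col18a1 (0.049), Stk38l (0.059), and Enpep (0.064). Fbln1 was nearest to the pseudogene Pisd-ps1 (0.052), Hs3st3b1 (0.060), a heparan sulfate enzyme, and Atoh8 (0.069). Fbn1 was nearest to Tmem100 (0.052), Slc27a3 (0.053), and Samd4 (0.067), and Fbn2 to the fibril collagen gene Col5a1 (0.081), Col16a1 (0.083), and Plekhg4 (0.105). Mfap5 was nearest to the hyaluronan synthase Has1 (0.099), and the fibroblast marker Thy1 (0.123) was also among its nearest. Eln was nearest to Spock2 (0.093), Ednrb (0.103), and Snord104 (0.107). Fbln5 and Efemp1 were nearest to Rras2 (0.029) and Zfp456 (0.029). Depth and the levels of tissue markers differ between the samples, and their part in these profiles was not tested, so a similar profile is a description only.

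Means of the markers of several connective tissues were lower as well. All 10 chondrocyte markers, all 8 osteoblast and osteocyte markers, 8 of 9 fibroblast and synovial markers, 4 of 5 tendon and ligament markers, and all 5 tested smooth muscle and pericyte markers averaged less in the Trpc1-/- group, with median logFC values of −0.45, −0.28, −0.21, −0.37, and −0.27. The summed chondrocyte markers lay between 5939 and 6459 CPM in WT and at 3405, 6227, and 3708 CPM in Trpc1-/- samples 1 to 3. Trpc1-/- sample 2 thus lay within the WT range. The fibroblast markers summed to between 1473 and 2159 CPM in WT and between 1402 and 1740 CPM in Trpc1-/- samples. Tendon and ligament markers summed to between 246 and 459 CPM in WT and between 226 and 315 CPM in Trpc1-/- samples. All 9 erythroid markers had a higher mean, and their sum lay between 15078 and 28573 CPM in WT and between 33105 and 45259 CPM in Trpc1-/- samples. All 6 skeletal muscle, all 4 adipocyte, and all 7 neutrophil markers, 5 of 6 B cell markers, and 4 of 6 macrophage and osteoclast markers had a higher mean, and 5 of 6 endothelial markers a lower one, with median logFC values of 0.70, 0.47, 0.10, 0.39, 0.00, and −0.09. The summed neutrophil markers were at 5136 CPM in WT sample 1 and between 12928 and 16431 CPM in WT samples 2 to 4. In Trpc1-/- samples they lay between 12110 and 15941 CPM. The part of tissue composition in the values of the 10 genes was not tested.

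As a measure relative to the connective tissue, libraries were also scaled on the chondrocyte, osteoblast, fibroblast, and tendon markers, none of which is among the 10 genes. The median logFC of all tested genes was then 0.36 and that of the 10 genes 0.00. Fbln2 (−0.01), Fbln7 (0.01), Fbn2 (0.02), Eln (−0.01), Efemp2 (0.07), Fbn1 (−0.11), and Mfap5 (−0.16) were within 1 SE of 0 relative to those markers. Fbln1 was at −0.20 (SE 0.18), Fbln5 at 0.32 (SE 0.19), and Efemp1 at 0.37 (SE 0.21). Most of these markers averaged less in the Trpc1-/- group, so scaling on them raised the logFC of all 10 genes. Under this scaling the edgeR adjusted P of Fbln1 was 0.407. Called were 0 of the 10 genes and 12 of all 16429 tested genes.

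**Figure D4:**
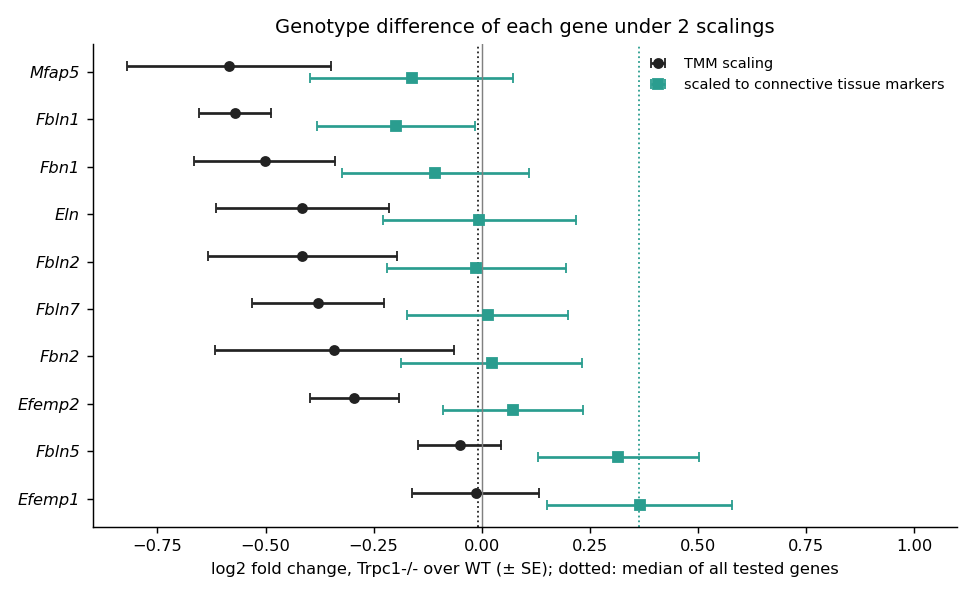
LogFC of Trpc1-/- over WT (x axis, points with SE) for the 10 genes (y axis) with TMM scaling (black) and with scaling on connective tissue markers (green), with dotted lines at the median of all tested genes under each. The TMM values run from −0.58 for Mfap5 to −0.01 for Efemp1, and the marker scaling moves every gene to the right.

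Beyond the 10 genes, 32 partners and enzymes of the elastic fibre were examined as a list. It too was chosen with earlier results of these data known, so its counts are given for orientation only. All 32 passed the filter, the mean of 28 was lower and of 4 higher in the Trpc1-/- group, and the median logFC was −0.40. By edgeR, 0 of the 32 had an adjusted P under 0.05 (the smallest was 0.381), and 14, all lower, had an unadjusted P under 0.05, against 5.49% of all tested genes lower and 4.51% higher. DESeq2 called 6, all lower (Lox, Loxl2, Loxl3, Loxl4, Thsd4, and Hmcn1), against 0.828% of all genes lower and 0.962% higher. In 12 of the 32, all lower, the genotypes did not overlap, against 6.42% of all tested genes lower and 7.15% higher, and 51.9% of all tested genes had a lower mean. With scaling on the connective tissue markers, edgeR called 0 of the 32 and 12 of all 16429 tested genes.

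The cross-linking enzymes shared a direction. All 5 lysyl oxidases had a lower mean, as did 51.9% of all tested genes, with logFC values between −0.77 and −0.26. In 4 of them the genotypes did not overlap, against 6.42% of all tested genes lower and 7.15% higher. In WT, Lox, which cross-links elastin and collagen, averaged 160 ± 7.64 CPM (SD, n = 4), against 114 ± 12.8 CPM (SD, n = 3) without TRPC1 (logFC −0.49, SE 0.10). Loxl2 had a logFC of −0.63 (SE 0.15) and Loxl4 of −0.77 (SE 0.18). Loxl1, the family member most tied to elastin, had −0.26 (SE 0.11) and overlapped. The edgeR adjusted P values were 0.381 for Lox, 0.395 for Loxl2 and Loxl4, and 0.496 for Loxl1. In DESeq2 the adjusted P values were 5.76e-04 for Lox, 0.0138 for Loxl4, 0.0203 for Loxl2, and 0.0408 for Loxl3.

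Of the 9 microfibril partners, 7 had a lower mean, against 51.9% of all tested genes. In 3, all lower, the genotypes did not overlap, against 6.42% of all tested genes lower and 7.15% higher. Emilin2 had the highest mean CPM of these partners over all 7 samples, a ranking that takes no account of gene length. It went the other way in its means, 91.5 ± 10.8 CPM (SD, n = 4) in WT against 98.0 ± 11.3 CPM (SD, n = 3), a difference smaller than the spread. Ltbp2, a microfibril-bound relative of the fibrillins, had a logFC of −0.60 (SE 0.19). All 7 genes of the ADAMTS and ADAMTSL group, which act on microfibrils, had a lower mean. Thsd4, which promotes fibrillin-1 assembly, had a logFC of −0.57 (SE 0.13), and Adamts10 one of −0.50 (SE 0.17). Versican (Vcan), a proteoglycan bound by fibulins 1 and 2, averaged 129 ± 24.3 CPM (SD, n = 4) in WT against 91.5 ± 5.37 CPM (SD, n = 3), without overlap. Hmcn1, a giant relative of the fibulins, had a logFC of −0.67 (SE 0.18).

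The enzymes that degrade elastin and the elastin receptor complex had median logFC values of −0.13 and −0.05. All 3 genes of the receptor complex had a lower mean, with no unadjusted P under 0.05. Of the 5 elastin-degrading enzymes, 3 had a lower and 2 a higher mean, and all overlapped between the genotypes. They ranged from −0.89 (SE 0.59) for the macrophage elastase Mmp12 to 0.28 (SE 0.24) for the lysosomal protease Ctss. Mmp9, a gelatinase of neutrophils and osteoclasts, was at 523 ± 161 CPM (SD, n = 4) in WT against 478 ± 34.3 CPM (SD, n = 3). Ctsa, a subunit of the elastin receptor complex, was at 112 ± 18.02 CPM (SD, n = 4) and 108 ± 1.79 CPM (SD, n = 3). Ltbp2, Hmcn1, Loxl1, Loxl3, Mmp12, and Ctss were named after their values were seen.

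**Figure D5:**
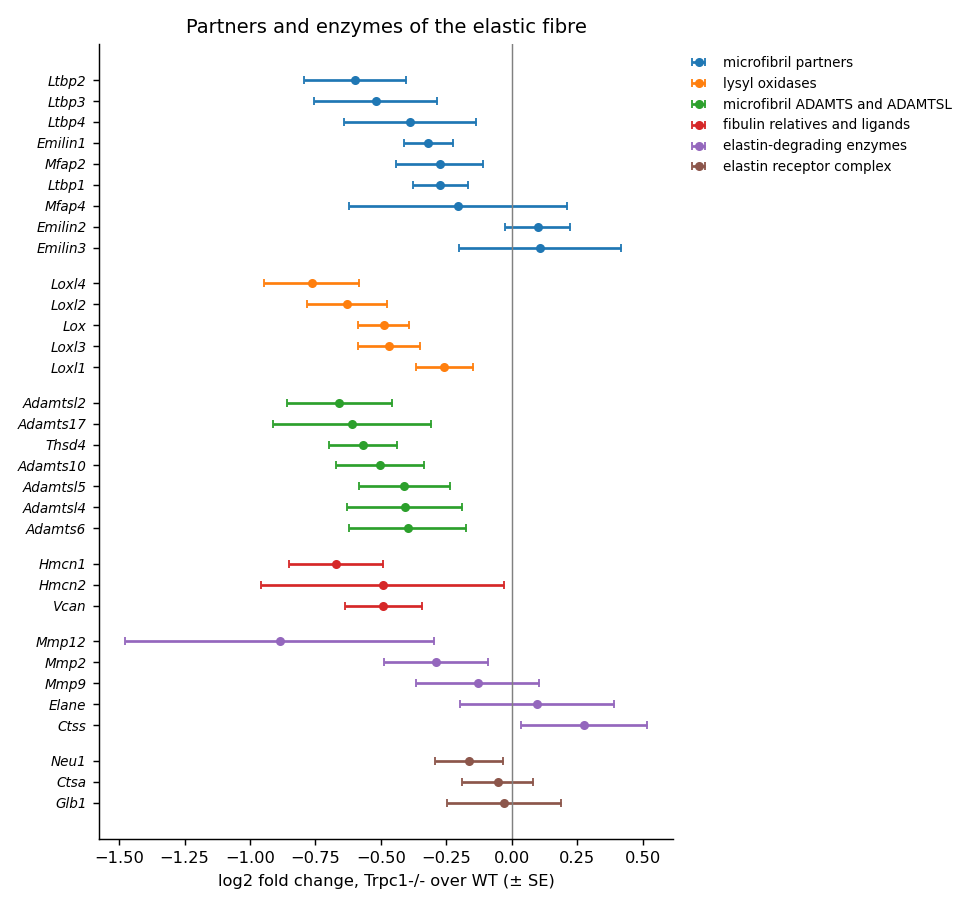
LogFC of Trpc1-/- over WT (x axis, points with SE) for 32 partners and enzymes of the elastic fibre (y axis), coloured by group. All 5 lysyl oxidases and all 7 ADAMTS and ADAMTSL genes lie below 0, whereas the elastin-degrading enzymes lie on both sides.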

How the data were processed

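RNA-Seq was performed on 7 pooled samples from 300 ng of total RNA with ribosomal depletion and stranded libraries. Per the submitters' processing notes and the study's methods, the authors trimmed reads with cutadapt 2.5, aligned them to GRCm38 with HISAT2 2.1.0, and assembled coverage with StringTie 2.0.3, and they deposited estimated counts per gene, whole numbers without normalization. Efemp2, Fbn1, Fbn2, and Eln each overlap 1 gene on the other strand.

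Groups follow the sample labels, which call the pools biological replicates without naming their mice. The 10 genes, the 32 partners, and the marker lists were chosen with earlier results of these data known. Tested were the 16429 of 55401 genes above 1 CPM in at least 2 samples, in R 4.3.3 with edgeR 4.0.16 (TMM, quasi-likelihood test, genotype alone, Benjamini-Hochberg adjustment, threshold 0.05), with SE from the F statistic. DESeq2 1.42.0, limma 3.58.1 (voom), other scalings and filters, the replicate block, the library numbers, and each sample left out were alternatives. The fits were first tested on simulated data. Exon lengths and positions are from GENCODE M21, which held 55141 of the gene IDs. Profiles used log2(CPM + 0.05). Named partners were the 4 with the smallest unadjusted P and, in each group, the gene with the highest mean CPM, not divided by length. A floor of 3 counts was 0.0254 to 0.0575 CPM, for counting error only, and each of the 10 genes had at least 318 counts in every sample. Protein sequences were not analysed here.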

Additional observations from a re-analysis of the deposited data

Results flagged for a closer look

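Values of the 4 WT samples were examined for a sample that stands apart, by Dixon's ratio of the gap beside the extreme sample to the whole range, which passes its 95% critical value by chance in about 1 of 20 groups. Of 64 quantities, 5 passed. Mfap5 had a ratio of 0.966, because WT sample 4 was at 8.47 CPM and the other WT samples were between 15.4 and 15.7 CPM. WT sample 4 was also the low sample for Ltbp1 (ratio 0.949, 81.9 CPM against 95.6 to 96.3 CPM) and for Mmp2 (ratio 0.914, 180.2 CPM against 283 to 293 CPM). Ctsa was low in WT sample 1 (ratio 0.849, 85.1 CPM against 118 to 124 CPM). The summed skeletal muscle markers were high in WT sample 1 (ratio 0.851, 1138 CPM against 55.9 to 217 CPM). Only the WT group was examined, and the 3 Trpc1-/- samples were not.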

How the results depend on the processing

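Each of the 10 genes was refitted under 24 alternatives, 1 of which repeats another, since replicates 1 to 3 without the block are the samples left without WT sample 4. Of these 240 values, 209 kept the direction and the side of the threshold, 14 passed the threshold, and 17 changed sign, 14 of them in Efemp1 or Fbln5. The DESeq2 fits with a sample left out and the fit of replicates 1 to 3 without the block were chosen after the data were seen. The cause was not tested for any of the changes. The level order and the shares rest on exon length, and with 3 against 4 samples single libraries decide several calls.

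By edgeR 0 genes were called. Over all genes DESeq2 called 294, voom 1, and connective tissue marker scaling in edgeR 12, and DESeq2 called 1 of the 10 genes and 6 of the 32 partners. Leaving out 1 sample gave 0 to 52 calls over all genes in edgeR, and 0 to 1 of the 10 genes. In DESeq2, the calls over all genes, of the 10 genes, and of the 32 partners were 892, 2, and 11 without WT sample 1, where Fbn1 joined Fbln1. They were 62, 1, and 2 without WT sample 2, 134, 1, and 1 without WT sample 3, and 281, 5, and 7 without WT sample 4, where Fbln2, Fbln7, Fbn1, and Mfap5 joined. They were 84, 1, and 1, then 371, 1, and 6, then 37, 1, and 1 without Trpc1-/- samples 1, 2, and 3. Connective tissue marker scaling moved the median logFC of the 10 genes to 0.0040 and turned Fbln5 (0.32), Fbln7 (0.014), Efemp1 (0.37), Efemp2 (0.072), and Fbn2 (0.023). Within the 1300s the median was −0.63, with Fbln5 at 0.079 and Efemp1 at 0.087. Without the low-count filter Efemp1 was at 0.0070. Leaving out 1 sample in edgeR gave −0.12 to 0.0011 for Fbln5 and −0.13 to 0.047 for Efemp1. In DESeq2, Efemp1 was at 0.043, 0.051, and 0.025 without WT sample 2, WT sample 3, and Trpc1-/- sample 2, and Fbln5 at 0.0063 without WT sample 3. With the longest transcript, 5 of 10 places in the level order were kept, the share of Fbln7 was 35.0% in WT and 33.4% in Trpc1-/- samples, and the Fbn1 to Fbn2 ratio was 9.64 in WT.

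Replicate numbers 1 to 3 occur in both genotypes but nothing says that they mark shared mice or days. Samples with the same number did not deviate together (correlations of −0.348, −0.205, and −0.0439). These correlations cannot exclude a shared day, because other differences between samples also enter them. With the number as a replicate block, 0 genes were called, as without it in the same 6 samples, the median logFC of the 10 genes was −0.50, and Efemp1 was at 0.016.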

Other observations

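The spread between samples of a genotype differed among the 10 genes. As a biological coefficient of variation in edgeR, Fbln1 (0.108), Fbln5 (0.110), and Efemp2 (0.116) varied less than the trend for genes of their abundance (0.187, 0.146, and 0.151). Fbn2 (0.257), Mfap5 (0.224), and Fbln2 (0.208) varied more (trend 0.153, 0.169, and 0.147). Summed over the 10 genes, the level per kilobase was 73.7, 66.4, 64.4, and 51.2 in WT samples 1 to 4 and 52.4, 48.7, and 47.1 in Trpc1-/- samples 1 to 3, so that WT sample 4 lay among the Trpc1-/- samples. The level of Fbln5 per length was 1.76, 2.41, 3.71, and 3.61 times that of Eln in WT samples 1 to 4 and 3.03, 4.20, and 3.38 times in Trpc1-/- samples 1 to 3, with overlapping groups.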
